A study of Mus musculus with 6 samples.

Results

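The neurotrophin system was followed in hippocampal libraries from mice that lacked exon 4 of Tet1 and from wild-type mice, all taken after an evoked seizure. The 6 genes are the ligand genes Bdnf and Ntf3, the Trk receptor genes Ntrk2 and Ntrk3, the p75 receptor gene Ngfr and the sortilin gene Sort1. They were taken by gene symbol, and all 6 were found among the 23361 symbols of the expression table. Of them, 5 reached a mean of 1 FPKM over the libraries and entered the test across genes, and Ngfr did not. FPKM is a level scaled by transcript length and by the mapped total of the library, so levels may be compared between genes.

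The Tet1-deficient mice were Tet1Δe4-/- (exon 4 deleted on both alleles). Tet1 encodes an enzyme that converts methylated cytosine in DNA to oxidised forms. The wild-type mice were Tet1+/+. Whole hippocampus gave 3 libraries of either genotype, from 3 mice each according to the design text. All mice had received electroconvulsive shock through ear clamps (18 mA, 100 Hz, 0.2 ms pulses for 1.15 seconds) and were sampled 1.5 to 2 hours later. The wild-type mice carried the shock too, no unshocked group was analysed here, and so induction by the seizure was not measured. The sources used here give no strain or age and do not explain the letter codes in the library titles, where wild-type replicate 1 carries an f and the other 5 an m.

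Neurotrophins are secreted growth factors that keep neurons alive and strengthen synapses. Each is made as a precursor (a proneurotrophin) and cut to its mature form. The mature forms bind receptor tyrosine kinases of the Trk family, TrkB for brain-derived neurotrophic factor (BDNF) and TrkC for neurotrophin-3, while the precursors bind the p75 receptor together with sortilin. In the hippocampus BDNF is released by active excitatory neurons, its gene is transcribed in response to calcium entry, and seizures are a classical stimulus for it.

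The 6 libraries had Pearson correlations across genes of 0.965 to 0.990. Replicate 1 of each genotype stood apart from the other 4 libraries on the first principal component, which held 53.3% of the variance. Of 12533 tested genes, 28.5% were higher in both of these libraries than in any of the other 4 and 35.0% were lower. Tet1 itself had 0.740, 0.685 and 0.638 FPKM in Tet1-deficient libraries, against 0.977, 0.718 and 0.897 FPKM in wild-type libraries. The groups overlapped, and a value over all exons is no check on the loss of 1 of them. Markers of dentate granule, CA1, CA2 and CA3 neurons were above 0 in every library. So were the 5 listed thalamus markers, and values above 0 do not show the region. Read depth is unknown.

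The genotypes were not balanced for sex-linked transcripts, which were looked at after the other values had been seen. Xist, the RNA made from the inactive X chromosome of females, had 63.5 FPKM in wild-type replicate 1 and 0.0389 to 0.202 FPKM in the other 5 libraries. The Y-linked gene Ddx3y had 0.0381 FPKM in wild-type replicate 1 and 16.7 to 35.2 FPKM in the other 5, and Eif2s3y, Kdm5d and Uty were likewise near 0 in that library alone. Wild-type replicate 1 thus had the transcripts of female tissue and the other 5 those of male tissue, including Tet1-deficient replicate 1, which stands apart with it. Without wild-type replicate 1 the log2 difference, Tet1-deficient minus wild-type, was 0.22 for Bdnf, 0.26 for Ntf3, -0.080 for Ntrk2, -0.0066 for Ntrk3, -0.13 for Ngfr and -0.0081 for Sort1, with adjusted limma p of 0.874 or more. The part of sex in the values was not tested.

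None of the 5 tested genes passed an adjusted p of 0.05 for a genotype difference in limma, and none had an unadjusted p under 0.05. Over all 12533 tested genes, 0.0319% passed the adjusted threshold and 1.36% had an unadjusted p under 0.05. No member separated the genotypes without overlap, against 4.13% of tested genes. The levels ran in the same order in both genotypes by their means: Ntrk2, Sort1, Bdnf, Ntrk3, Ntf3 and Ngfr.

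**Figure D1:**
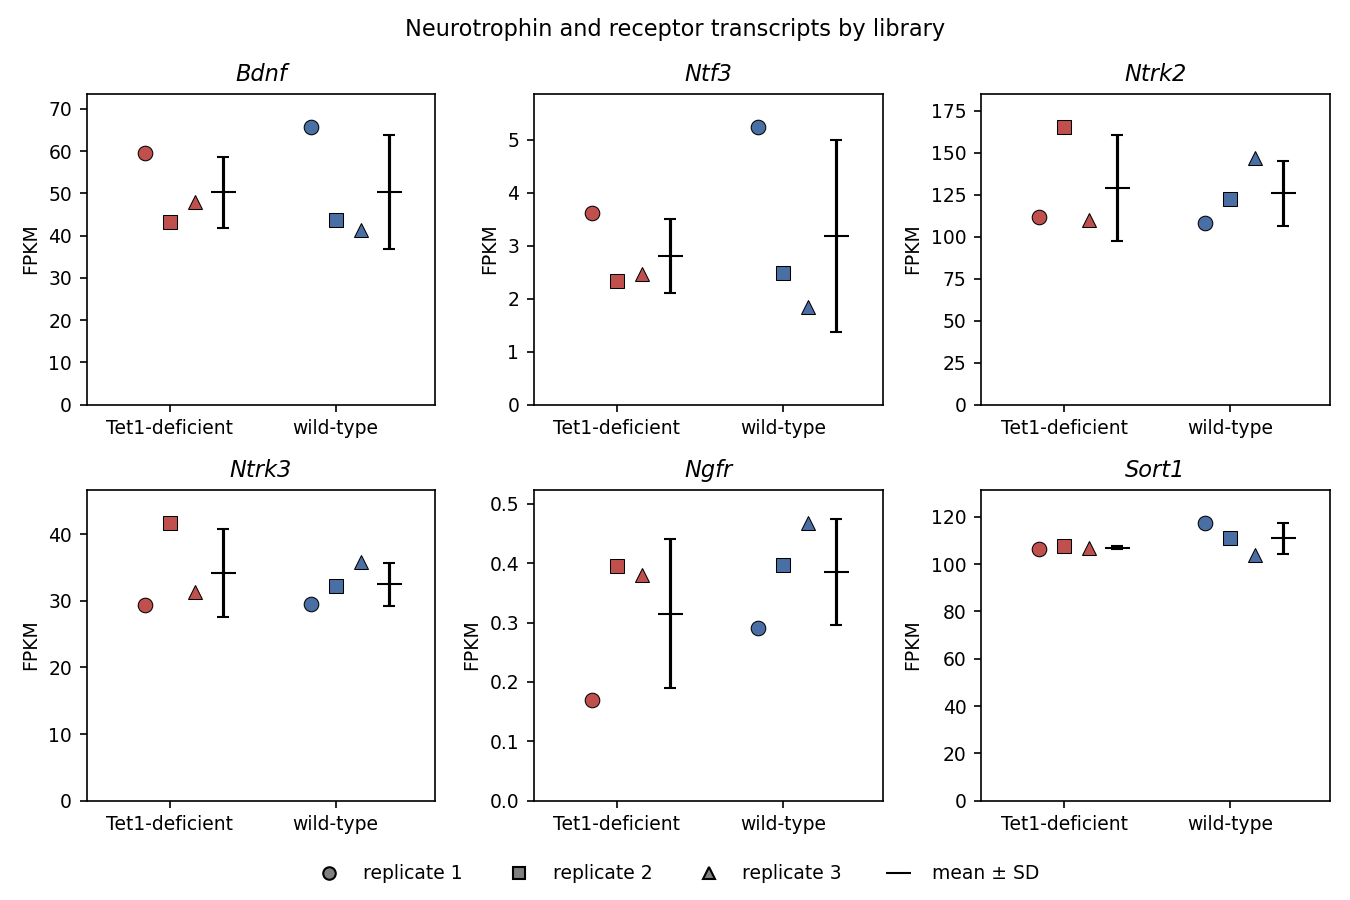
FPKM of each gene in the 3 Tet1-deficient libraries (red) and the 3 wild-type libraries (blue); symbols mark the replicate and the bars the mean ± SD (n = 3). The genotypes overlap for all 6 genes, and replicate 1 of each genotype is highest for Bdnf and Ntf3.

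Bdnf, the more abundant of the 2 ligand genes, stood at a closely similar mean level in both genotypes. It had 59.6, 43.1 and 48.0 FPKM in Tet1-deficient libraries, against 65.8, 43.6 and 41.4 FPKM in wild-type libraries. The high value of each genotype came from replicate 1, and the remaining 4 libraries lay within 41.4 to 48.0 FPKM. The means were 50.2 ± 8.45 FPKM in Tet1-deficient and 50.3 ± 13.5 FPKM in wild-type hippocampus (SD, n = 3). On the scale of log2(FPKM + 1) the difference, Tet1-deficient minus wild-type, was 0.02 with an SE of 0.20 and an adjusted limma p of 1.00. Its 95% interval ran from -0.46 to 0.50, so differences between 0.725-fold and 1.41-fold lay within it. In the 4 libraries without replicate 1 the log2 difference was 0.10 (unadjusted limma p 0.217), and between the 2 replicate 1 libraries it was -0.14. Bdnf varied more over the 6 libraries than 84.7% of tested genes, with a highest value 1.59 times the lowest.

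Ntf3, which encodes neurotrophin-3, was far scarcer and had the same library pattern. It had 3.62, 2.34 and 2.46 FPKM in Tet1-deficient libraries, against 5.25, 2.49 and 1.84 FPKM in wild-type libraries. Replicate 1 was again the highest of each genotype, and the groups overlapped. The means were 2.81 ± 0.706 FPKM in Tet1-deficient and 3.19 ± 1.81 FPKM in wild-type hippocampus (SD, n = 3). The log2 difference was -0.07 (SE 0.29, adjusted limma p 1.00), with a 95% interval of -0.77 to 0.63. Its sign depended on the replicate 1 libraries: it was -0.44 between these 2 and 0.11 in the other 4 (unadjusted limma p 0.398). Ntf3 varied more over libraries than 96.8% of tested genes. The ratio of Bdnf to Ntf3 was 16.5, 18.5 and 19.5 in Tet1-deficient libraries, against 12.5, 17.5 and 22.5 in wild-type libraries. For the genotype difference in the mean log2 ratio the exact two-sided permutation p was 0.8. Both extremes of this ratio were wild-type, and its spread was not tested.

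The high values of both ligand genes in replicate 1 of each genotype are not particular to them, because 28.5% of tested genes had both replicate 1 libraries above the other 4. Among 8 activity-regulated genes chosen for comparison, Fos, Egr1, Npas4, Nr4a1 and Homer1 also had both replicate 1 libraries above the other 4. Npas4, a transcription factor gene that acts on Bdnf promoters, had 8.03, 3.94 and 4.78 FPKM in Tet1-deficient libraries, against 15.5, 5.14 and 3.97 FPKM in wild-type libraries. Fos, the archetypal immediate early gene, had 31.8, 15.2 and 27.5 FPKM in Tet1-deficient libraries, against 39.3, 20.4 and 15.9 FPKM in wild-type libraries. Both genes thus peaked in wild-type replicate 1, as Bdnf and Ntf3 did. Vgf, a neuropeptide precursor gene, and Nptx2, a synaptic pentraxin gene, went the other way: both had their lowest 2 values in the replicate 1 libraries. Arc, a synaptic plasticity gene, followed neither pattern and was highest in Tet1-deficient replicate 3. Since the libraries fall into 2 and 4, the values of these genes are given side by side, and no correlation with Bdnf was tested. The sources used here give the time from shock to dissection as a range and not for single mice.

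**Figure D2:**
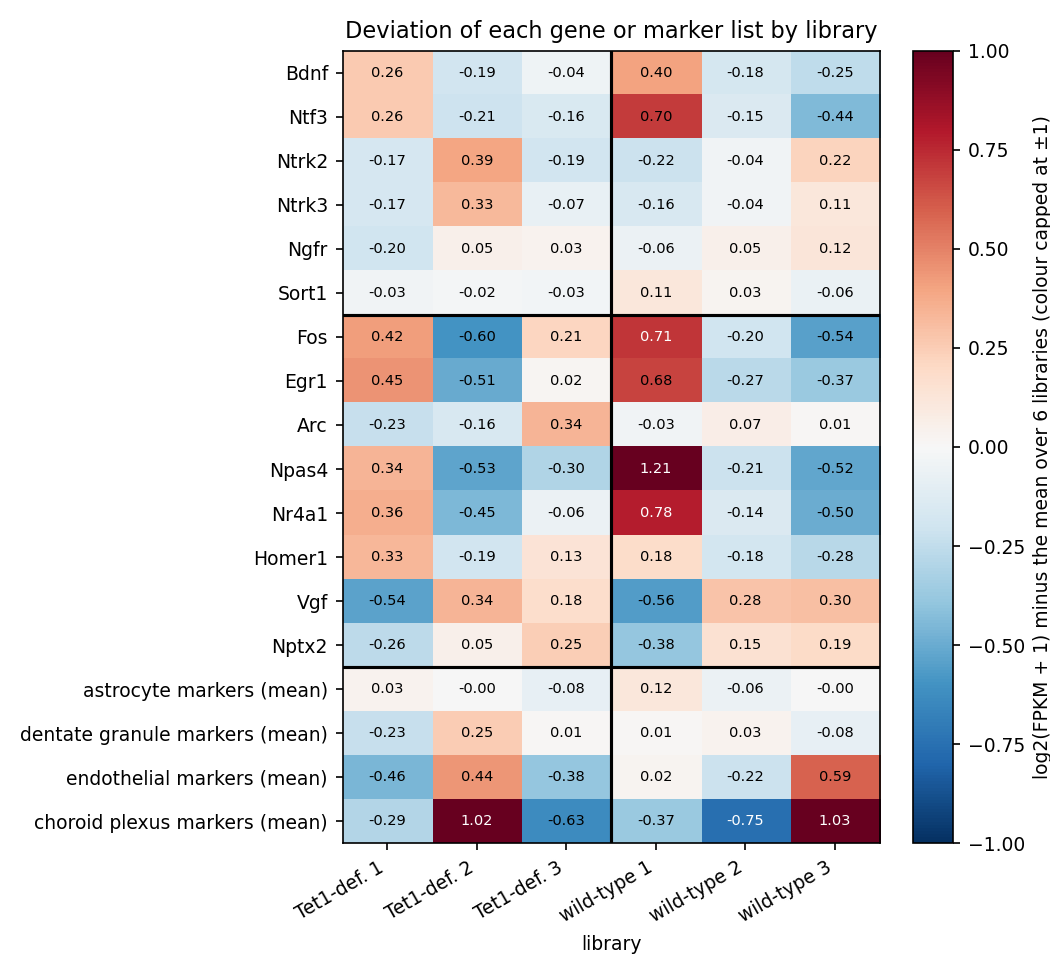
Deviation of log2(FPKM + 1) from its mean over the 6 libraries, for the 6 genes (top block), 8 activity-regulated genes (middle) and the means of 4 marker lists (bottom), with Tet1-deficient libraries left of wild-type ones. Bdnf deviates by 0.26 in Tet1-deficient replicate 1 and 0.40 in wild-type replicate 1, while Ntrk2 and Ntrk3 are highest in Tet1-deficient replicate 2 and wild-type replicate 3, where the choroid plexus markers stand at 1.02 and 1.03.

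Bdnf is transcribed from several alternative promoters, each joined to the same coding exon, and a gene-level FPKM adds them together. Bdnf lies on chromosome 2 from 109674700 to 109727007 on the plus strand (GRCm38, the build that mm10 names), and GENCODE M21 lists 11 protein-coding transcripts for it with 9 distinct starts. Ntf3 lies on chromosome 6 from 126101412 to 126166910 on the minus strand, with 3 protein-coding transcripts. RefSeq promoter windows on GRCm38.p6 were found for 4 of the 6 genes, 7 for Bdnf and 2 for Ntf3. The 2 ligand genes varied together over libraries, but 28.5% of tested genes likewise had both replicate 1 libraries above the other 4. Whether the 2 genes share promoter control was not tested. Of the windows, 3 are printed, each covering the 250 bases before a RefSeq start. They are those of the most upstream Bdnf start, the Bdnf start usually numbered exon IV, which is the best studied activity-dependent one, and a start of Ntf3. They are written 5′ to 3′ on the gene's strand, and capitals mark the sequence TCACGTCA, a variant of the cAMP response element that CREB binds.
Bdnf, most upstream start, chr2:109674450-109674699 (plus strand): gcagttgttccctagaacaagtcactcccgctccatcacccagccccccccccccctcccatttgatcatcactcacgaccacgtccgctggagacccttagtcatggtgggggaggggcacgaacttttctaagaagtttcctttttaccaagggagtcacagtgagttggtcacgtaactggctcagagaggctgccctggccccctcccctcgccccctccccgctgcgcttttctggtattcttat
Bdnf, exon IV start, chr2:109692186-109692435 (plus strand): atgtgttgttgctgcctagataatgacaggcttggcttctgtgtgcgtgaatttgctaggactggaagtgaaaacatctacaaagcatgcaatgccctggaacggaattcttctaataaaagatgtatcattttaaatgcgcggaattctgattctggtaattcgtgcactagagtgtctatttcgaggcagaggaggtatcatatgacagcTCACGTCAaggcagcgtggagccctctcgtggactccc
Ntf3, chr6:126164961-126165210 (minus strand): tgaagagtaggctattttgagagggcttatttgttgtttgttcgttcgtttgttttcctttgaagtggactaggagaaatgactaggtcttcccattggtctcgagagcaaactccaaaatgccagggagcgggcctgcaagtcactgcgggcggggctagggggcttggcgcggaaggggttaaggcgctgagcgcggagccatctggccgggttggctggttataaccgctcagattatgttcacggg

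TCACGTCA, or its reverse complement TGACGTGA, occurred in the exon IV window and in no other of the 7 Bdnf windows or the 2 Ntf3 windows. Of 32851 windows of this length, 0.350% hold it. The sequence was chosen by hand for the search, so this share is no test of enrichment. The shorter half-site TGACG, or CGTCA on the other strand, is contained in TCACGTCA and begins at position -35 from the start. It was the one half-site in the Bdnf windows, and 17.8% of all windows hold at least 1. The palindromic full element TGACGTCA was in none of the windows of these genes, against 1.55% of all windows. Another sequence searched for, CACGTG, occurred 1 time in the Ntf3 window not printed and in no other window of these genes, against 6.02% of all windows. The CpG dinucleotide is the main site of DNA methylation and thus of TET oxidation. The windows printed hold 9, 9 and 14 CpGs, and the 7 Bdnf windows hold from 1 to 13, where the median of all windows is 6. DNA methylation was not analysed here, and a match in letters does not show that a factor binds.

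Ntrk2, which encodes TrkB, the receptor of BDNF, was the most abundant of the 6 genes. It had 112, 166 and 110 FPKM in Tet1-deficient libraries, against 108, 122 and 147 FPKM in wild-type libraries. Tet1-deficient replicate 2 and wild-type replicate 3 were high, and the groups overlapped. The means were 129 ± 31.5 FPKM in Tet1-deficient and 126 ± 19.6 FPKM in wild-type hippocampus (SD, n = 3). The log2 difference was 0.02 (SE 0.19, adjusted limma p 1.00), with a 95% interval of -0.43 to 0.47, and it was 0.01 in the 4 libraries without replicate 1. Ntrk2 gives rise to a full-length kinase, mainly of neurons, and to truncated forms without the kinase, which astrocytes make in quantity, and the gene-level value sums them. GENCODE M21 lists 7 protein-coding Ntrk2 transcripts with coding sequences from 1398 to 2463 bases.

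Ntrk3, which encodes TrkC, the receptor of neurotrophin-3, followed Ntrk2 from library to library at a lower level. It had 29.4, 41.7 and 31.4 FPKM in Tet1-deficient libraries, against 29.4, 32.1 and 35.8 FPKM in wild-type libraries. The same 2 libraries were the highest, and the groups overlapped. Both replicate 1 libraries lay below the other 4, as they did for 35.0% of tested genes. The means were 34.1 ± 6.62 FPKM in Tet1-deficient and 32.5 ± 3.17 FPKM in wild-type hippocampus (SD, n = 3), with a log2 difference of 0.06 (SE 0.15, adjusted limma p 1.00, 95% interval -0.30 to 0.42). Within each library Ntrk2 stood at 3.51 to 4.11 times Ntrk3. The ratio of their FPKM was 3.81, 3.97 and 3.51 in Tet1-deficient libraries, against 3.67, 3.81 and 4.11 in wild-type libraries. For the genotype difference in the mean log2 ratio the exact two-sided permutation p was 0.7, and the steadiness of the ratio was not tested. By contrast the ratio of Bdnf to its receptor gene Ntrk2 spread from 0.261 to 0.533 in Tet1-deficient and from 0.282 to 0.608 in wild-type libraries, with the highest value of each genotype in replicate 1.

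The 2 libraries with the highest Trk receptor levels were also those with the most choroid plexus transcript. The summed FPKM of 5 choroid plexus markers was 21.6, 195 and 9.18 in Tet1-deficient libraries, against 16.5, 7.29 and 302 in wild-type libraries, most of it Ttr, the transthyretin gene. All 5 markers (Ttr, Folr1, Kl, Clic6 and Kcne2) were above 0 in every library. The summed FPKM of 5 endothelial markers was also highest in these 2 libraries, at 7.88, 19.7 and 8.99 in Tet1-deficient libraries, against 13.5, 10.7 and 23.0 in wild-type libraries. Markers of mural cells and of meningeal fibroblasts summed highest in wild-type replicate 1, where Ntrk2 was lowest, but not all of their genes peaked there. Rgs5 did, with 25.9 FPKM against 17.1 FPKM in wild-type replicate 3. The mural markers Pdgfrb, Acta2, Tagln and Myh11 instead peaked in wild-type replicate 3. Of the meningeal markers, Dcn, Lum and Slc6a13 peaked in wild-type replicate 1, and Col1a1, Col1a2 and Col3a1 in wild-type replicate 3. The mural sum was 22.6, 26.1 and 16.1 FPKM in Tet1-deficient libraries, against 35.5, 19.97 and 32.8 FPKM in wild-type libraries. The meningeal sum was 28.8, 33.6 and 28.2 FPKM in Tet1-deficient libraries, against 55.6, 28.1 and 48.1 FPKM in wild-type libraries. Astrocyte markers were split. Their 7 genes summed to 612, 565 and 531 FPKM in Tet1-deficient libraries, against 661, 523 and 545 FPKM in wild-type libraries, with replicate 1 highest in each genotype, and Slc1a3, Gja1 and Aqp4 were highest there too. Aldh1l1 and Gfap had their 2 highest values in the libraries with the most Ntrk2: Aldh1l1 had 22.9 FPKM in Tet1-deficient replicate 2 and 22.6 FPKM in wild-type replicate 3, and Gfap had 166 and 168 FPKM in the same libraries, close to its 165 FPKM in wild-type replicate 1. Aldh1l1 and Fgfr3 were lowest in the replicate 1 libraries, and Fgfr3 was highest in wild-type replicate 2 (38.1 FPKM). Sox9 was lowest in Tet1-deficient replicate 2 (7.74 FPKM), the library with the most Ntrk2, and highest in wild-type replicate 3 (11.2 FPKM). The part of these cells in the Ntrk2 and Ntrk3 values was not tested. In whole tissue, a change in the number of cells of a type and a change in the RNA per cell cannot be told apart.

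Ngfr, which encodes the p75 receptor, was barely detected. It had 0.170, 0.396 and 0.380 FPKM in Tet1-deficient libraries, against 0.291, 0.397 and 0.468 FPKM in wild-type libraries. Both replicate 1 libraries lay below the other 4, as they did for 35.0% of tested genes, and the groups overlapped. The means were 0.315 ± 0.126 FPKM in Tet1-deficient and 0.385 ± 0.0892 FPKM in wild-type hippocampus (SD, n = 3). In a model of all genes above 0 the log2 difference was -0.08 (SE 0.083, adjusted limma p 1.00), which understates a change at so low a level. With a pseudocount of 0.1 in place of 1 it was -0.26 (adjusted limma p 1.00). In the adult forebrain p75 is best known from cholinergic neurons of the basal forebrain, whose markers were near 0 here. The 5 listed genes summed to 0.140 to 0.316 FPKM in Tet1-deficient and 0.233 to 0.343 FPKM in wild-type libraries, and Lhx8 was listed at 0 in every library.

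Sort1, which encodes sortilin, a sorting receptor that partners p75 and binds proneurotrophins, was abundant and the steadiest of the 6. It had 106, 108 and 107 FPKM in Tet1-deficient libraries, against 117, 111 and 104 FPKM in wild-type libraries. The 3 Tet1-deficient values lay inside the wild-type range. The means were 107 ± 0.662 FPKM in Tet1-deficient and 111 ± 6.71 FPKM in wild-type hippocampus (SD, n = 3). The log2 difference was -0.05 (SE 0.084, adjusted limma p 1.00), and its 95% interval of -0.25 to 0.15 spans 0.841-fold to 1.11-fold. Only 7.41% of tested genes varied less over the 6 libraries. The Sort1 and Ntrk2 values overlapped in wild-type libraries, while each Ntrk2 value lay above each Sort1 value in Tet1-deficient libraries, by as little as 110 against 108 FPKM. Neighbours further down the order of levels did not overlap within a genotype.

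**Figure D3:**
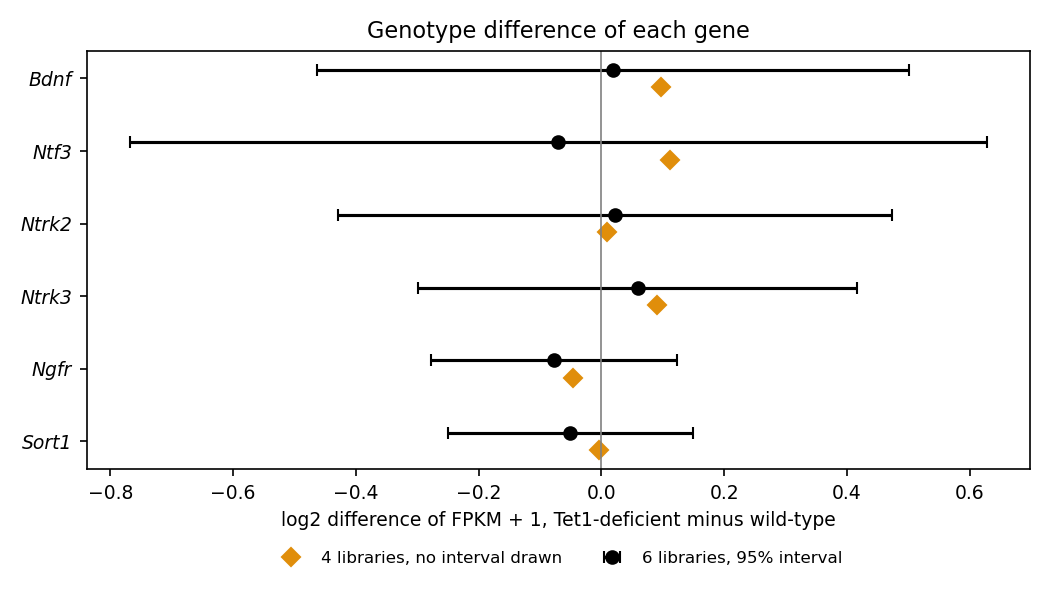
Log2 difference of FPKM + 1, Tet1-deficient minus wild-type, for each gene: black points and bars give the limma estimate with its 95% interval from 6 libraries, and orange diamonds the estimate from the 4 libraries without replicate 1. Every interval includes 0, the widest is that of Ntf3 (-0.77 to 0.63), and the Ntf3 estimate is -0.07 in 6 libraries and 0.11 in 4.

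Of the ligand genes outside the 6, Ntf5, which encodes the TrkB ligand neurotrophin-4, lay near the bottom of the scale. It had 0.0427, 0.157 and 0.0936 FPKM in Tet1-deficient libraries, against 0.112, 0.0829 and 0.160 FPKM in wild-type libraries, and the groups overlapped.

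Beyond these, 9 lists of pathway genes were examined, 1 of them holding Ntf5 alone, with 149 genes in all, of which 138 were tested. None passed the adjusted threshold in limma, and 1 had an unadjusted p under 0.05, which is 0.725% of them against 1.36% of all tested genes. The genotypes did not overlap for 4 of the 138 (2.90%, against 4.13% of all tested genes), with 1 higher (1.91% of all tested genes were) and 3 lower (2.21% were) in Tet1-deficient hippocampus. Their median log2 difference was -0.0071, beside 0.0055 over all tested genes.

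The gene with the smallest p was Camk2a, which encodes the alpha subunit of the calcium/calmodulin-dependent kinase that acts downstream of Trk calcium signals and NMDA receptors. It had 1415, 1354 and 1339 FPKM in Tet1-deficient libraries, against 1208, 1192 and 1142 FPKM in wild-type libraries. All Tet1-deficient values were above all wild-type ones, by a log2 difference of 0.21 (95% interval 0.04 to 0.39, unadjusted limma p 0.0230, adjusted limma p 1.00). With quantile normalization the log2 difference was 0.089 (unadjusted limma p 0.277). Without the filter on level the unadjusted limma p was 0.151, and with 1 library left out it ran from 0.0298 to 0.0932. It was 0.0182 with a pseudocount of 0.1 and 0.0261 in the 4 libraries without replicate 1. With estimated library weights it was 0.00253 (adjusted limma p 0.183). The related kinase gene Camk2d lay the other way without overlap, with 8.22, 8.19 and 7.58 FPKM in Tet1-deficient libraries, against 10.6, 8.35 and 8.96 FPKM in wild-type libraries. In the calcium arm as a whole, 7 of 15 tested genes lay higher in Tet1-deficient libraries and 8 lay lower.

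Of the other arms, that of Ras, Raf and ERK had 14 of 20 genes higher, beside 6632 of all 12533 tested genes, with a median log2 difference of 0.04. Without wild-type replicate 1 that median was 0.0082. Rps6ka3, an ERK-activated kinase gene, measured 13.4 ± 1.58 FPKM in Tet1-deficient and 11.4 ± 0.618 FPKM in wild-type hippocampus (SD, n = 3, log2 difference 0.22, adjusted limma p 1.00). The PI3K, Akt and mTOR arm had 10 of 23 genes higher and a median of -0.02. Trk adaptors and trafficking genes had 10 of 25 higher and a median of -0.03, and among them Irs1, an insulin receptor substrate gene, was lower without overlap (1.54, 1.95 and 1.72 FPKM in Tet1-deficient libraries, against 2.04, 1.98 and 2.29 FPKM in wild-type libraries). With 1 library left out the median ran from -0.039 to 0.0081 for the PI3K arm and from -0.087 to 0.039 for the adaptors, so neither has a direction. These values describe the lists, and no gene in them passed the test.

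Genes that handle proneurotrophins or share the sortilin and p75 route likewise had 0 genes past the threshold. Of 10 tested genes for processing, 5 were higher and 5 lower. Cpe, the carboxypeptidase gene that also sorts proBDNF into secretory granules, measured 1531 ± 69.5 FPKM in Tet1-deficient and 1469 ± 39.3 FPKM in wild-type hippocampus (SD, n = 3). Furin, a proneurotrophin-cutting protease gene, measured 18.8 ± 4.52 FPKM in Tet1-deficient and 16.6 ± 4.90 FPKM in wild-type hippocampus (SD, n = 3). Of 7 tested sortilin relatives and p75 partners 6 were lower, beside 5901 of all 12533 tested genes, with a median log2 difference of -0.08. That median was -0.0098 without Tet1-deficient replicate 1 and -0.21 without Tet1-deficient replicate 2. Sorcs3, a sortilin relative of hippocampal synapses, measured 11.3 ± 0.619 FPKM in Tet1-deficient and 12.9 ± 0.977 FPKM in wild-type hippocampus (SD, n = 3, log2 difference -0.18, unadjusted limma p 0.101), with overlap. Among 21 genes of p75 signalling and cleavage 7 were higher and 14 lower (median -0.01, but 0.022 in the 4 libraries without replicate 1). Of 17 tested regulators of Bdnf promoters 9 were higher and 8 lower, and Arnt2, the partner of Npas4, was lower without overlap (46.5 ± 3.41 FPKM in Tet1-deficient and 50.5 ± 1.21 FPKM in wild-type hippocampus, SD, n = 3).

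**Figure D4:**
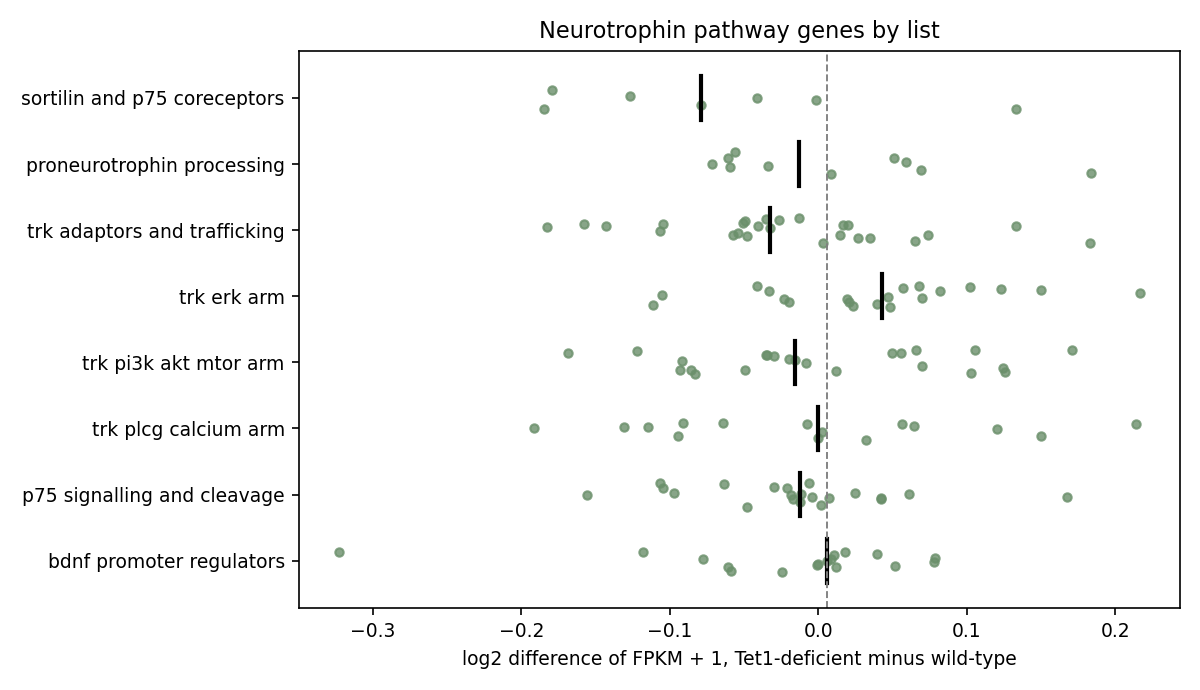
Log2 difference of FPKM + 1, Tet1-deficient minus wild-type, for each tested gene (dots, spread vertically at random) of 8 pathway lists, with the list's median as a black bar and the median of all tested genes (0.0055) as a dashed line. Medians run from -0.08 for sortilin and p75 coreceptors to 0.04 for the ERK arm, and the farthest gene is Npas4 at -0.32.

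The genes whose library pattern was most like that of each member were ranked by Pearson r of log2(FPKM + 1) over the 6 libraries, as a description. For Bdnf they were Idh1 (r = 0.998), a cytosolic isocitrate dehydrogenase gene, Map4k5 (r = 0.998), a kinase gene, and Spty2d1 (r = 0.997), a histone chaperone gene. Such likeness was common: 1767 genes had an r above 0.9 with Bdnf and 1970 an r below -0.9, and the separation of the replicate 1 libraries enters every such value. For Ntf3 the nearest was Ptgs2 (r = 0.996), the activity-induced cyclooxygenase-2 gene, which had 53.6, 37.5 and 41.7 FPKM in Tet1-deficient libraries, against 72.9, 39.4 and 31.2 FPKM in wild-type libraries. Uri1 and Scamp5 came next (r = 0.992 each). Ptgs2 had the order of libraries that Ntf3 showed within each genotype, which its choice by the highest r makes likely. In all, 822 genes had an r above 0.9 with Ntf3 and 1149 an r below -0.9.

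The Trk receptors had fewer close partners, with 170 genes above an r of 0.9 for Ntrk2 and 207 for Ntrk3. Cpt1a (r = 0.992), a gene of mitochondrial fatty acid uptake, Wfdc1 (r = 0.990) and Pde3a (r = 0.990), a phosphodiesterase gene, were nearest to Ntrk2. Ptpro (r = 0.992), a receptor tyrosine phosphatase gene, Pde3a (r = 0.987) and 1810041L15Rik (r = 0.986) were nearest to Ntrk3, so Pde3a was shared. Ntrk2 and Ntrk3 themselves had an r of 0.970, which makes a shared neighbour likely. Ptpro had 9.45, 19.7 and 10.2 FPKM in Tet1-deficient libraries, against 9.58, 11.7 and 13.5 FPKM in wild-type libraries. It had the same 2 high libraries, which its choice by r makes likely. For Sort1, which hardly varied, the nearest were Rnf180 (r = 0.981), Fam13a (r = 0.976) and Secisbp2l (r = 0.974), and 58 genes passed 0.9. For Ngfr they were Dolpp1, Rhov (r = 0.995 each) and Rps6ka1 (r = 0.994), at a level where the estimate itself is uncertain.

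Annotation overlaps may bear on some of these values. GENCODE M21 places the antisense gene Gm45346 across upstream exons of Bdnf, 4930415C11Rik across exons of Ntrk2 and Gm12523 across the start of Sort1. The sources used here state neither the annotation behind the FPKM values nor whether the libraries kept strand. Unstranded counting could mix the reads of both genes of such a pair. Ntrk2 spans 58806569 to 59133970 on chromosome 13 (plus strand), Ntrk3 78175959 to 78738012 on chromosome 7 (minus strand), Ngfr 95568818 to 95587735 on chromosome 11 (minus strand) and Sort1 108284082 to 108361511 on chromosome 3 (plus strand), all on GRCm38.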

How the data were processed

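Expression was deposited as FPKM per gene and library. The submitters' processing notes name TopHat2 (2.0.9), Cufflinks (2.1.1) and build mm10; the annotation, strand setting and filters are not given in the sources used. Among 511 genes above 0 and under 0.1 FPKM in every library, no more than 4 shared a ratio (to 3 decimals) between replicate 1 of the genotypes, so no steps of whole reads were seen and depth is unknown.

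Columns were matched to samples by title. Replicate numbers follow the order of the samples and pair nothing. Nothing beyond the design text's count of mice says how libraries were drawn, so p-values measure the spread between these libraries. Genes averaging 1 FPKM or more (12533) were fitted as log2(FPKM + 1) with limma 3.58.1 in R 4.3.3 (intensity trend, no covariate, two-sided, Benjamini-Hochberg over all tested genes, threshold 0.05). A log2 difference understates the change of low genes. Members and named genes under the filter (Ngfr, Ntf5 and Tet1) came from the same model of all genes above 0. The exact permutation test of single values has 20 assignments and cannot go below p = 0.1; for the 6 genes it gave 0.4 to 1. The fit was tested on simulated data.

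Named were the members, Tet1, Ntf5, 8 activity genes, up to 3 genes with the smallest p of each pathway list and the 3 genes most like each member; not all are described, and some genes of the pathway are not reported here. The sex-linked genes were added after seeing the data. Members and lists were chosen with earlier results of these data known. The alternatives were pseudocount, filter, scaling, trend, library weights and leaving out each library; the fits of 4 libraries and of a model that adds the library split were chosen after seeing the data. Promoter sequences are from RefSeq (GRCm38.p6), gene positions from GENCODE M21.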

Additional observations from a re-analysis of the deposited data

How the results depend on the processing

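No paired analysis was possible because the labels give no replicate numbers that pair the libraries. None of the 6 genes and none of the tested pathway genes passed the threshold in any of the 14 alternatives to limma as described, where the smallest adjusted p of any member was 0.659 (Bdnf, estimated library weights). With 1 library left out the log2 difference, Tet1-deficient minus wild-type, ran from -0.11 to 0.22 for Bdnf, -0.31 to 0.26 for Ntf3, -0.17 to 0.14 for Ntrk2, -0.089 to 0.16 for Ntrk3, -0.13 to 0.0044 for Ngfr and -0.095 to -0.0081 for Sort1. The sign of all but Sort1 thus turned with single libraries, and the values are too close to 0 to give a direction. With estimated library weights it was 0.060 for Ntf3, -0.16 for Ntrk2 and -0.032 for Ntrk3, and in the 4 libraries without replicate 1 it was 0.11 for Ntf3. The cause was not tested.

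Over all genes the number past the threshold was 4. It was 59 with library weights, 12 in the 4 libraries, 8 when the library split was added to the model, and 0 to 6 with 1 library left out. Other signs turned with library weights (Egr1 0.24, Arc 0.22, Nr4a1 0.13), in the 4 libraries (Ntf5 0.0055, Egr1 0.079, Arc 0.051, Nr4a1 0.065, Nptx2 -0.021) and with quantile normalization (Nptx2 -0.00018, Cpe -0.050). With 1 library left out the signs turned within -0.066 to 0.0094 for Ntf5, -0.25 to 0.38 for Fos, -0.25 to 0.31 for Egr1, -0.21 to 0.076 for Arc, -0.66 to 0.20 for Npas4, -0.37 to 0.27 for Nr4a1, -0.30 to 0.25 for Vgf, -0.16 to 0.16 for Nptx2, -0.071 to 0.37 for Furin and -0.12 to 0.0067 for Cadps2. The planned correlation tests of Bdnf with activity genes were not run, since the libraries fall into 2 clusters. Precision is limited by 3 libraries per genotype and unknown depth.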
